A study of Mus musculus with 15 samples.

Results

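Oxidative phosphorylation is the step of respiration in which mitochondria pass electrons from NADH and succinate to oxygen and use the energy to make ATP. Complexes I and II feed electrons into ubiquinone, complex III passes them to cytochrome c and complex IV hands them to oxygen. Complexes I, III and IV pump protons, and complex V, the ATP synthase, lets them flow back. Absorptive colonocytes are known for burning butyrate in their mitochondria, and several subunits exist as isoforms that mark heart and striated muscle, lung or testis.

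The genes described here are those on the array whose annotated symbol starts with Nduf, Uqcr or Atp5, is Sdha, Sdhb, Sdhc or Sdhd, or starts with Cox4 to Cox8. They numbered 90 of 18193 genes, each represented by its brightest probe set. They comprised 34 complex I subunits, 8 complex I assembly factors (the Ndufaf genes), 4 complex II, 8 complex III, 19 complex IV and 17 complex V genes. Ndufa4 and Ndufa4l2 were placed in complex IV, where the Ndufa4 protein is now assigned. The choice used names and brightness over all arrays, no difference between groups, and all 90 entered the test because dim genes were not filtered out.

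RNA of colon from male mice aged 3 months, of a mixed C57BL/6 and 129 background, was hybridised to 15 arrays in 5 groups of 3. The double mutant mice carried APC+/- and Olfm4-/- and gave tumour tissue and tissue adjacent to the tumours. The Olfm4 mutant mice were Olfm4-/- with both Apc copies intact, the APC mutant mice were APC+/- with Olfm4 intact, and wild type mice carried neither change. The Apc allele is not given in the sources used here. The tumour and adjacent arrays came from 2 animals by their labels, with replicate 1 of each tissue from 1 animal and replicates 2 and 3 from the other, so n = 3 there counts tissue pieces. The other labels name no shared animal, although the number of Olfm4 mutant replicate 3 joins digits of those of the other pair, and p-values measure only the spread between these arrays.

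Values are log2 intensities after RMA, in which 1 unit is a doubling. They ran from 2.56 to 14.96 with array medians between 6.35 and 6.47. The kept Olfm4 probe set lay between 2.97 and 3.32 on all 15 arrays, wild type included, so its level could not check the genotype labels. The kept Apc probe set lay between 11.13 and 11.31 in tumours, 10.65 and 10.99 in adjacent tissue, 10.51 and 10.52 in Olfm4 mutants, 10.42 and 10.78 in APC mutants and 10.04 and 10.31 in wild type. Arrays were numbered in blocks of 1 group. The bacterial spike-in controls, scored as their 3′ minus their 5′ probe sets, gave 4.98 ± 0.246 in tumours, 4.12 ± 0.284 in adjacent tissue, 2.70 ± 0.528 in Olfm4 mutants, 2.23 ± 0.195 in APC mutants and 2.05 ± 0.0797 in wild type (SD, n = 3 each). Olfm4 mutant replicate 2 stood apart in its group at 3.31. The mouse transcripts Gapdh and Actb were scored likewise. Gapdh averaged 4.574 in tumours, 3.971 in adjacent tissue, 1.496 in Olfm4 mutants, 0.663 in APC mutants and 0.589 in wild type. Actb averaged 4.286 in tumours, 3.398 in adjacent tissue, 2.571 in Olfm4 mutants, 1.834 in APC mutants and 1.154 in wild type. Gapdh gave 2.764 on Olfm4 mutant replicate 2. The score of the sample RNA thus differed by group too, and the cause was not tested. The groups of genotype and tissue, array number and spike-in difference cannot be told apart for most comparisons, and the results are given below with and without that difference as a covariate.

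The promoters of 5 genes are shown because results below turn on them. Cox7a1 and Cox8b differed most between tumour and adjacent tissue, Cox8a is the broadly expressed partner of Cox8b, and Atp5g2 and Uqcr11 differed most from wild type. Each run is the 300 bases of RefSeq's GRCm38.p6 window, 250 before and 50 after the start of the gene, 5′ to 3′ on the gene's strand. Capitals mark letters of the motifs searched.
Cox7a1, chr7:30183921-30184220, plus strand, capitals for the CCAAT box: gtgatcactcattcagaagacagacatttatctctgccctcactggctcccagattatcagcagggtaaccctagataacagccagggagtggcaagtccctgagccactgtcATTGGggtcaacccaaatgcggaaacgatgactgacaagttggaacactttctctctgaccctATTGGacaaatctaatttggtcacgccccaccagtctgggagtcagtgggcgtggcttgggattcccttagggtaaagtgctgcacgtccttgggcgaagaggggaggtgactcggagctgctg
Cox8b, chr7:140900397-140900696, minus strand, capitals for TATAAA and for CAGCTG, the E-box of muscle factors: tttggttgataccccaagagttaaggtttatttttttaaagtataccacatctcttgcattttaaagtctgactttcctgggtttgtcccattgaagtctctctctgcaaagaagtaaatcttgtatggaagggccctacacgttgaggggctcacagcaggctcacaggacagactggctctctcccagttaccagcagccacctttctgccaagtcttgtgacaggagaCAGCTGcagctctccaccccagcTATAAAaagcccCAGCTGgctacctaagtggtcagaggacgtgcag
Cox8a, chr19:7217567-7217866, minus strand, capitals for CCAAT and for CCGGAAG, the ETS core: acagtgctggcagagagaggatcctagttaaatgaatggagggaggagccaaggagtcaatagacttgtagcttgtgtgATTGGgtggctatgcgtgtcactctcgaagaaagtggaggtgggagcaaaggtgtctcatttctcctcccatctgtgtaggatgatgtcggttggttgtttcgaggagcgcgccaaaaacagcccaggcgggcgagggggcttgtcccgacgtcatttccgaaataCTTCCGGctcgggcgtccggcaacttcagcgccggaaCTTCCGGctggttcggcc
Atp5g2, chr15:102670998-102671297, minus strand, capitals for GCGCATGC, the NRF1 element, and for GGGCGG, the GC box: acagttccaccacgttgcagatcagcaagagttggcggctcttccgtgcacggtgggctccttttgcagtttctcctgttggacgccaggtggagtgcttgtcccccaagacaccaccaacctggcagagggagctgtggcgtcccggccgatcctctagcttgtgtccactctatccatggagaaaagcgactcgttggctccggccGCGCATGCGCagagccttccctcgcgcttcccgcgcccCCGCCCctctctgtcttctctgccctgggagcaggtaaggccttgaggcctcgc
Uqcr11, chr10:80406772-80407071, minus strand, capitals for the NRF1 element and the ETS core: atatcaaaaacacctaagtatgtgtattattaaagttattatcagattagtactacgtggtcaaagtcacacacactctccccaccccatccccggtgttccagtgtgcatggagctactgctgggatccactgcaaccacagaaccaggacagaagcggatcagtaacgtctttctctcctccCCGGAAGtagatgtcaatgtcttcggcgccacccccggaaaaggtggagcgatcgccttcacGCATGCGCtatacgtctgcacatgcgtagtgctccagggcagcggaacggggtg

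A window was present for 74 of the 90 genes, and each motif was searched on both strands and compared with 13269 protein-coding genes of the array. The NRF1 element, named for a transcription factor known for driving respiratory chain genes, stood in 11 of 74 windows (14.9%), against 4.89% of all. AAGATGGC, the YY1 core, stood in 13.5% against 4.17%, and the ETS core, the letters bound by the GABP factor, in 25.7% against 15.5%. TCAAGGTCA, the element of the estrogen-related receptors, stood in the windows of Atp5g3 and Sdhd (2.70%), against 0.369%. The muscle E-box stood in 8.11% against 18.8% and the GC box in 47.3% against 59.4%. CCAAT stood in 43.2% against 42.2% and TATAAA in 10.8% against 11.4%. The MEF2 site and the CArG box were matched in 0 of 74 windows, against 1.62% and 1.61% (a site of that name on either strand). Some windows hold the NRF1 element and the ETS core together, as Uqcr11 does, and a match describes letters only.

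Most of these genes are transcribed at high levels in the colon. Their mean over the 15 arrays had a median of 12.9, against 8.39 for all genes, and 81 of 90 lay above the latter. Means above 13 were reached by 41 of the 90 genes, out of 531 such genes on the whole array. At the bottom lay Cox7b2 (mean 3.11), Ndufb4 (4.03) and Cox8c (5.61), of which Cox7b2 and Cox8c are testis isoforms. Ndufb1, Ndufb4 and Cox7c, which are subunits of every cell, were dim too, so their probe sets say little.

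In tumours the 90 genes as a group lay below adjacent tissue, and adjacent tissue below wild type. The median over the 90 genes of each array's value minus the wild type mean was -0.448, -0.425 and -0.397 in tumours and -0.205, -0.193 and -0.202 in adjacent tissue. It was -0.074, -0.139 and -0.071 in Olfm4 mutants, 0.017, -0.068 and -0.131 in APC mutants and 0.022, 0.032 and -0.055 in wild type. The tumour, adjacent and remaining arrays did not overlap in this median. Over all genes the median difference of tumour from wild type was 0.106. The plot of medians by array shows the same 3 tissue pieces lowest in complexes I, II, III, IV and V, with complex III the lowest at a group median of -0.808.

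**Figure D1:**
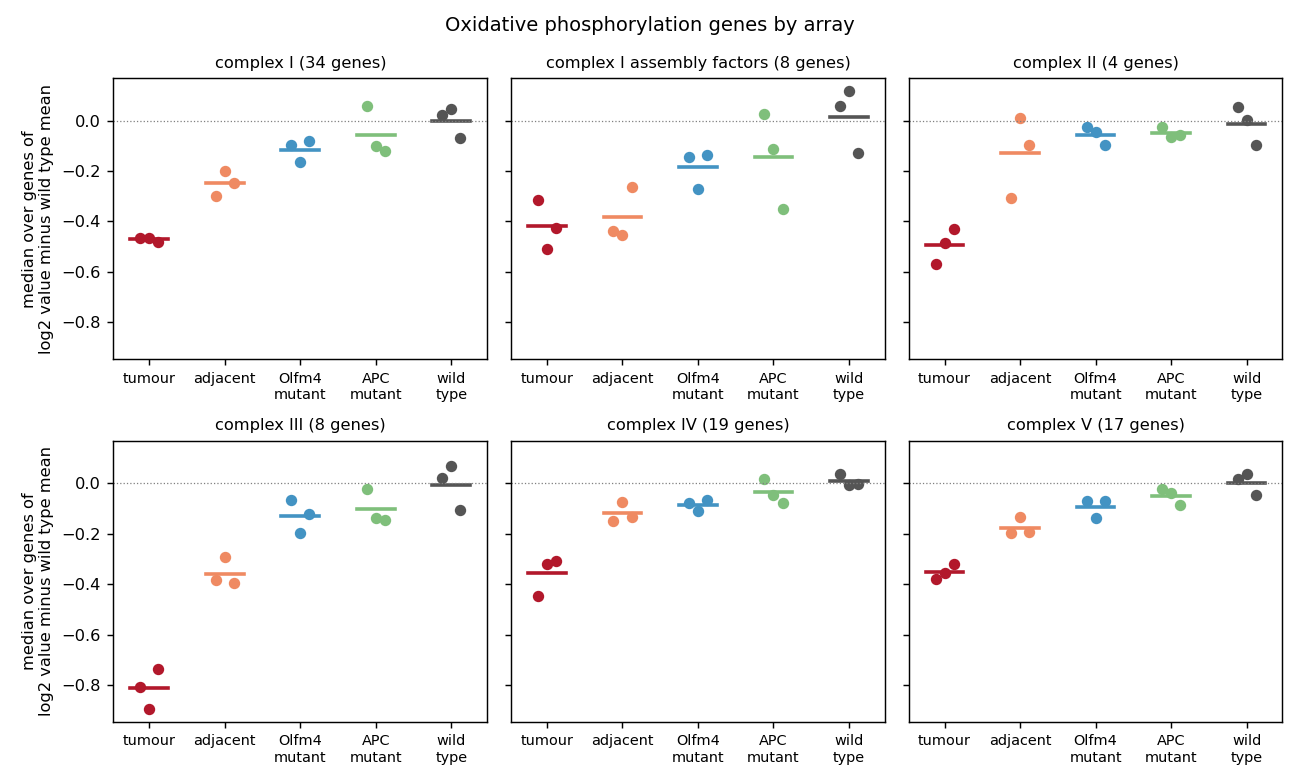
Median over the genes of each complex of the log2 value minus the wild type mean (vertical axis, log2) for each of 15 arrays, by group. Points are arrays and bars are group means. In complex III the 3 tumour arrays lie between -0.895 and -0.735, and adjacent arrays lie between tumour and wild type.

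Between tumour and adjacent tissue of the double mutants, 31 of the 90 genes fell and 1 rose at an adjusted p below 0.05 (limma). Of all genes tested, 13.8% were lower and 14.3% higher. The median difference was -0.207 log2, against 0.002 over all genes, and 82 of 90 differences were negative. Among the 9096 genes brighter than the median gene, tested apart, 32 of 81 oxidative phosphorylation genes (39.5%) were lower, against 20.3% of all bright genes. Counting each animal's arrays as 1 sample left 13 lower, and leaving out adjacent replicate 2 left 17. With the spike-in covariate 3 were lower and 1 higher, although all 32 called genes kept their direction.

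Complex I takes electrons from NADH. Of its 34 subunits 13 (38.2%) fell and 0 rose between tumour and adjacent tissue, with a median of -0.230 and a range of -0.74 to 0.17. The shares over all genes were 13.8% lower and 14.3% higher, and 20.3% of bright genes were lower. Ndufb10, an accessory subunit of the membrane arm, had 12.32, 12.01 and 12.04 in tumours, against 12.76, 12.99 and 12.84 in adjacent tissue. The groups did not overlap and the difference was -0.74 (SE 0.13, adjusted p 0.00099). Ndufa8, another accessory subunit, differed by -0.66 (SE 0.16, adjusted p 0.0089) and Ndufb9 by -0.53 (SE 0.097, adjusted p 0.0012). By brightest probe set, 13 of 28 accessory and 0 of 6 core subunits fell, with medians of -0.295 and -0.201, and the difference between these classes was not tested. Of the core subunits, which carry the flavin or the iron-sulfur clusters or lie beside them, Ndufs7 fell by 0.71 on a second probe set (adjusted p 0.0070 over all probe sets) and differed by -0.18 on its brightest. Ndufs1 differed by -0.24 (SE 0.11, adjusted p 0.12) and Ndufv1 by -0.12 (SE 0.14, adjusted p 0.60).

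The Ndufaf assembly factors help build complex I without staying in it. None of the 8 passed the test between tumour and adjacent tissue, where their median was -0.094 and 1 had an unadjusted p below 0.05. The widest difference was that of Ndufaf8, -0.60 (adjusted p 0.077). Likewise 0 of 8 other complex I assembly genes of a listed set changed. Over all genes 13.8% were lower and 14.3% higher.

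Complex II is both succinate dehydrogenase of the citric acid cycle and an entry to the chain. Sdhb, its iron-sulfur subunit, had 11.86, 11.80 and 12.04 in tumours, against 12.22, 12.74 and 12.55 in adjacent tissue, a difference of -0.60 (SE 0.14, adjusted p 0.0063). Sdhc, a membrane anchor, had 11.11, 11.17 and 11.12 in tumours, against 11.57, 11.84 and 11.76 in adjacent tissue, a difference of -0.59 (SE 0.13, adjusted p 0.0035). Neither overlapped between groups. Sdha, the flavoprotein, differed by -0.24 (SE 0.092, adjusted p 0.07). Sdhd, the other anchor, differed by -0.12 (SE 0.094, adjusted p 0.38) on its brightest probe set and by -0.86 (adjusted p 0.0014 over all probe sets) on a dimmer one.

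Complex III passes electrons from ubiquinol to cytochrome c, and 5 of its 8 genes (62.5%) fell between tumour and adjacent tissue. The median was -0.526 and all 8 differences were negative, where 13.8% of all genes and 20.3% of bright genes were lower. Uqcrfs1, the Rieske iron-sulfur protein that moves the electrons, had 11.91, 12.20 and 12.04 in tumours, against 12.55, 12.63 and 12.64 in adjacent tissue. It differed by -0.55 (SE 0.12, adjusted p 0.003) without overlap, and its adjacent level was within 0.06 of wild type (SE 0.12, adjusted p 0.747). Uqcrh, the hinge protein, differed by -0.53 (SE 0.096, adjusted p 0.0011), and Uqcrq, a small subunit known as a ubiquinone-binding protein, by -0.72 (SE 0.2, adjusted p 0.015). The Uqcrq call was lost without tumour replicate 2 (-0.64, adjusted p 0.06) or adjacent replicate 2 (-0.62, adjusted p 0.069).

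Complex IV held the widest differences between tumour and adjacent tissue among the 90 genes. Of its 19 genes 8 (42.1%) fell and 1 (5.26%) rose, with a median of -0.287. Beside these stood 13.8% of all genes lower and 14.3% higher, and 20.3% of bright genes lower and 16.3% higher. Cox7a1, the isoform of heart and striated muscle, had 10.09, 9.91 and 9.78 in tumours and 11.72, 12.12 and 11.94 in adjacent tissue. It had 12.30, 12.12 and 12.25 in Olfm4 mutants, 12.50, 12.21 and 12.09 in APC mutants and 12.49, 12.46 and 12.50 in wild type. All 3 tumour arrays lay more than 1 unit below every other array. The difference of tumour from adjacent tissue was -2.0 (SE 0.13, adjusted p 6.1e-07), 4.00-fold lower, and with the spike-in covariate -1.89 (SE 0.20, adjusted p 0.00019). Its broadly expressed partner Cox7a2 differed by -0.21 (SE 0.079, adjusted p 0.065) on its brightest probe set. A second bright Cox7a2 probe set, at a mean of 13.54, gave -0.52 (adjusted p 0.0027 over all probe sets). Cox7a2l, which takes part in supercomplexes, differed by -0.30 (SE 0.093, adjusted p 0.028). The Cox7a2l call was lost when tumour replicate 1 or 2 or adjacent replicate 2 or 3 was left out.

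Cox8b, the muscle and brown fat isoform of the smallest subunit, was dim throughout. It had 5.81, 5.83 and 5.04 in tumours, 7.11, 7.51 and 7.14 in adjacent tissue and 7.11, 6.28 and 7.06 in wild type. Tumour arrays lay below all others, by -1.70 against adjacent tissue (SE 0.26, adjusted p 0.00031) and by -1.26 against wild type (SE 0.26, adjusted p 0.0013). The covariate gave -2.04 against adjacent tissue (adjusted p 0.0043). The tumour values lay below the array medians, and testis germ cell markers averaged 5.08 to 5.56 on the same arrays, so the Cox8b signal in tumours is not shown to exceed background and these sizes are uncertain. Cox8a, the form of most tissues, had 11.95, 11.72 and 11.92 in tumours, against 12.39, 12.71 and 12.48 in adjacent tissue, a difference of -0.66 (SE 0.14, adjusted p 0.0032).

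Ndufa4 was the gene that rose between tumour and adjacent tissue. It had 11.99, 12.10 and 12.27 in tumours, 11.61, 11.76 and 11.80 in adjacent tissue and 12.51, 12.55 and 12.54 in wild type. Tumours thus lay above adjacent tissue by 0.40 (SE 0.14, adjusted p 0.048) and below wild type by a difference of -0.41 (SE 0.14, adjusted p 0.024). The first call was lost in 5 of the 6 fits that left out 1 tumour or adjacent array, with adjusted p between 0.068 and 0.17, and held with the covariate (0.72, adjusted p 0.016). The second was lost without tumour replicate 1 or 2 or wild type replicate 2 or 3. Its paralogue Ndufa4l2, known as a hypoxia-induced gene, differed by -0.12 (adjusted p 0.72) and -0.53 (adjusted p 0.053), and without wild type replicate 3 the second was called (-0.68, adjusted p 0.026).

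The other isoform families of complex IV follow, and no difference between isoforms was tested. Cox6b1 fell by 0.55 in tumours relative to adjacent tissue (SE 0.094, adjusted p 0.0008), while its testis isoform Cox6b2 differed by 0.39 (SE 0.2, adjusted p 0.18). Cox6b2 had 9.53, 9.51 and 9.59 in tumours, against 8.71, 8.86 and 8.49 in wild type. That difference of 0.86 (SE 0.2, adjusted p 0.0034) was the 1 increase among the 90 genes between tumour and wild type. Cox4i1 fell by 0.38 relative to adjacent tissue (adjusted p 0.012, and 0.058 without adjacent replicate 2), and its lung isoform Cox4i2 differed by -0.34 (adjusted p 0.22) at levels between 6.76 and 8.04. On their brightest probe sets, Cox6a1, Cox6a2, Cox7b2 and Cox8c did not pass the test in either tumour comparison. A second bright Cox6a1 probe set, at a mean of 13.08, did pass, at -0.73 against adjacent tissue (adjusted p 0.0022 over all probe sets) and -1.52 against wild type (adjusted p 3.1e-06).

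**Figure D2:**
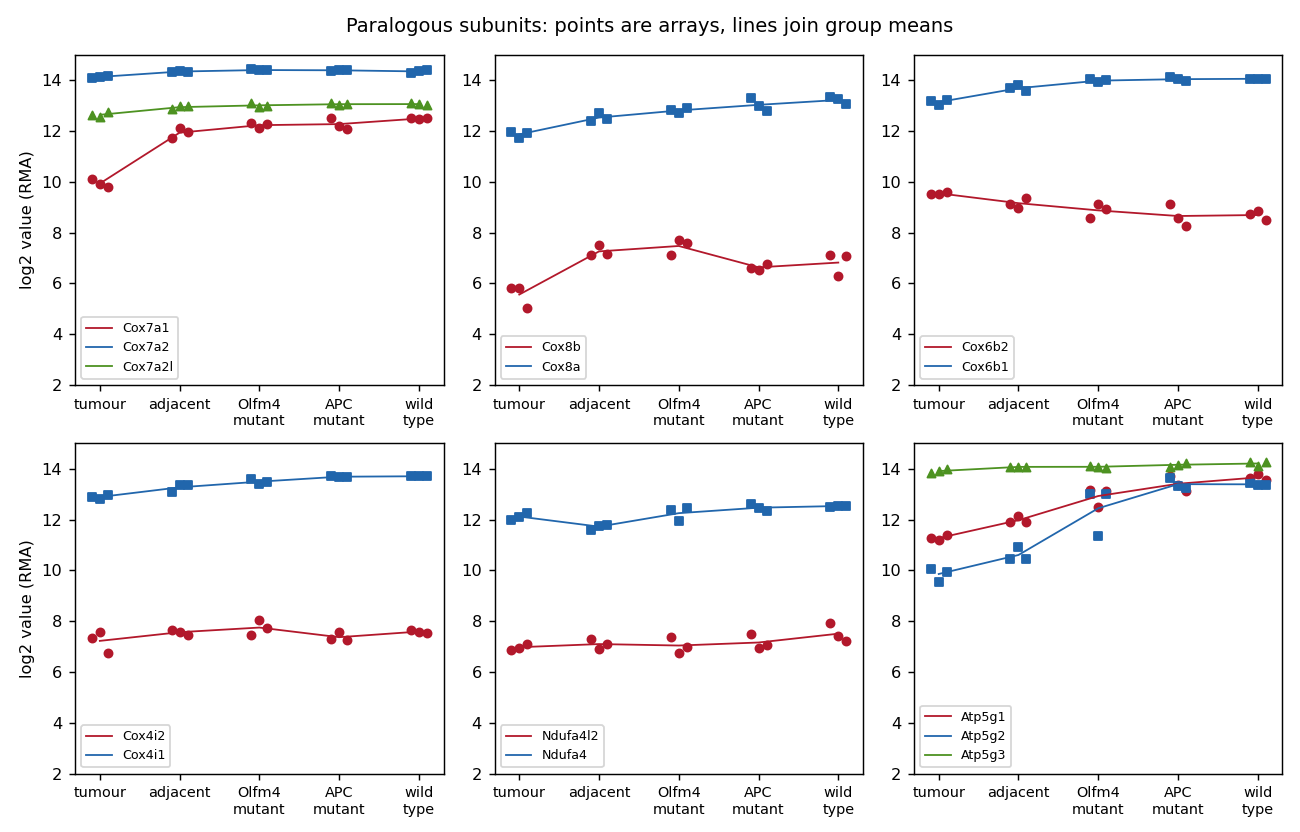
Log2 values (vertical axis) of isoform families in complexes IV and V on each of 15 arrays, by group, with lines through group means. Cox7a1 and Cox8b are lowest in the 3 tumour arrays, while Atp5g1 and Atp5g2 are low in both double mutant tissues and Atp5g3 lies at or above 13.83 on every array.

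Markers of other cell types moved in the same comparison, in which 13.8% of all genes were lower and 14.3% higher. All 12 smooth muscle markers fell in tumours relative to adjacent tissue (median -3.14), with Des at -4.37 (SE 0.47, adjusted p 2.2e-05). Their mean level ran from 8.01 to 9.55 in tumours, 11.33 to 11.96 in adjacent tissue and 11.31 to 12.74 in wild type. Striated muscle markers averaged 5.61 to 5.84 per array in tumours, 5.80 to 5.96 in adjacent tissue and 5.93 to 6.54 in wild type. Of the 14, 2 (14.3%) fell and 2 (14.3%) rose between tumour and adjacent tissue, near the shares of all genes. Of brown adipocyte markers 1 of 5 fell and 1 rose, with differences from -1.53 to 3.16. The defining Ucp1 averaged 4.8 in tumours and 4.70 in adjacent tissue, near the low end of the array. White adipocyte markers gave 1 of 5 lower, and 0 of 7 testis markers changed. RMA gives no value of 0 for an absent transcript.

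Absorptive colonocyte markers fell too, 10 of 12 with 1 higher, and their mean level was 9.26 to 9.86 in tumours, 11.82 to 12.07 in adjacent tissue and 12.75 to 12.86 in wild type. Of B cell markers 6 of 7 fell and of neuron and glia markers 3 of 5, while 5 of 6 neutrophil markers rose. Between tumour and adjacent tissue 13.8% of all genes were lower and 14.3% higher. The part of these shifts in cell markers in the differences of Cox7a1, Cox8b and the other subunits was not tested. In such bulk RNA, fewer cells of a type and less RNA per cell cannot be told apart.

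Complex V turns the proton gradient into ATP, and 3 of its 17 genes fell between tumour and adjacent tissue, with a median of -0.185. That is, on the brightest probe sets, 17.6% of them, near the 13.8% of all genes and below the 20.3% of bright genes. They were Atp5g1, which encodes the c subunit of the rotating ring (-0.70, SE 0.18, adjusted p 0.012), Atp5pb of the peripheral stalk (-0.33, SE 0.091, adjusted p 0.014) and Atp5c1, the central stalk (-0.28, SE 0.08, adjusted p 0.02). All 3 calls were lost without adjacent replicate 2, and that of Atp5c1 also without tumour replicate 1. The catalytic Atp5b had 13.12, 13.19 and 13.15 in tumours, against 13.18, 13.36 and 13.29 in adjacent tissue, overlapping at -0.13 (SE 0.089, adjusted p 0.33). Atp5g2 had the widest difference, -0.75, but an SE of 0.35 and an adjusted p of 0.13, and Atp5g3 differed by -0.16 (adjusted p 0.2). Second bright probe sets fell for Atp5d (-0.83, adjusted p 0.014) and Atp5h (-0.55, adjusted p 0.0053). They also fell for Atp5o (-0.37, adjusted p 0.012) and Atp5j2 (-0.35, adjusted p 0.0068). Those of Atp5pb (-0.098, adjusted p 0.60), Atp5a1 and Atp5k did not pass. These p-values were adjusted over all probe sets, and the share above depends on the probe set.

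**Figure D3:**
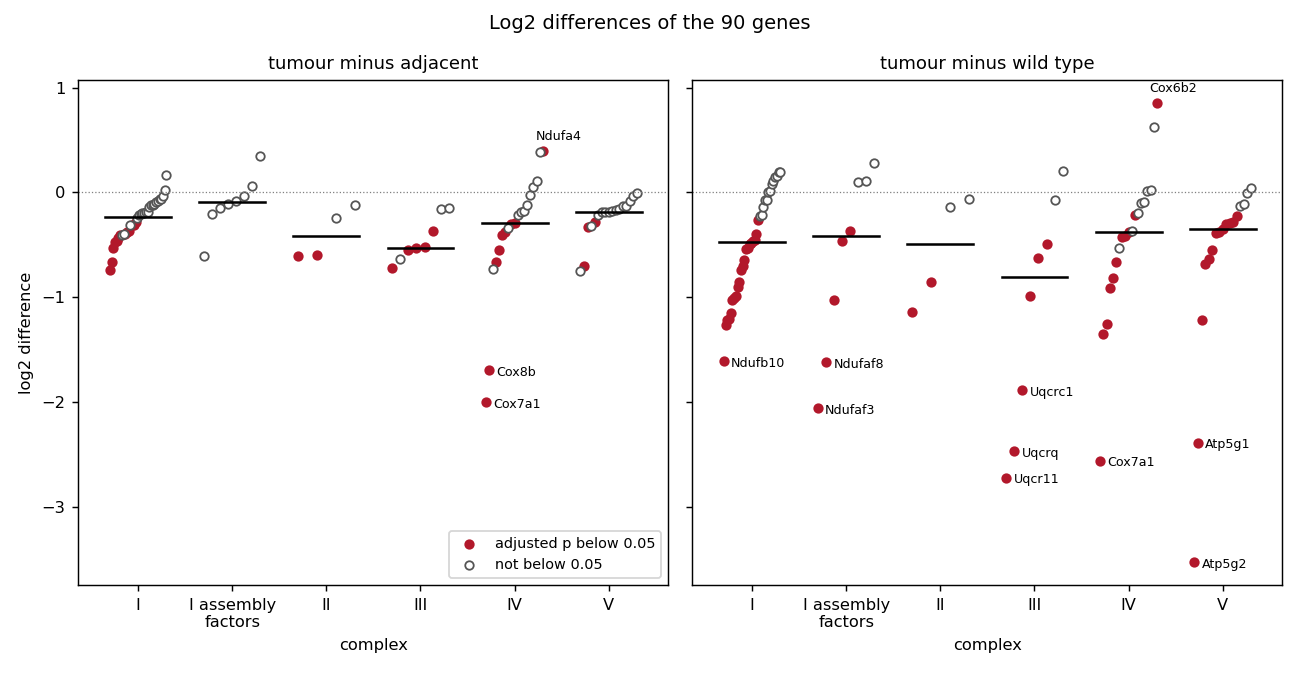
Log2 differences (vertical axis) of the 90 genes by complex, tumour minus adjacent tissue at left and tumour minus wild type at right. Filled points passed an adjusted p of 0.05, open points did not, and bars are medians. Cox7a1 and Cox8b stand at -2.0 and -1.70 on the left, and Atp5g2 at -3.53 on the right.

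Against wild type, 57 of the 90 genes fell in tumours and 1 rose, where 20.1% of all genes were lower and 29.3% higher. The median was -0.418, against 0.106 over all genes. Of the bright genes tested apart, 56 of 81 members (69.1%) were lower, against 29.4% of all bright genes. The falls covered 21 of 34 complex I subunits, 5 of 8 Ndufaf factors, 2 of 4 complex II, 6 of 8 complex III, 10 of 19 complex IV and 13 of 17 complex V genes. After cyclic loess scaling the median of all genes was -0.007 and that of the 90 genes -0.395, with 50 lower and 5 higher.

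Of complex V, Atp5g2, a second gene for the c subunit, had 10.07, 9.56 and 9.94 in tumours and 10.45, 10.90 and 10.46 in adjacent tissue. It had 12.99, 11.34 and 13.01 in Olfm4 mutants, 13.62, 13.31 and 13.25 in APC mutants and 13.45, 13.35 and 13.36 in wild type. Both double mutant tissues lay below every other array, and Olfm4 mutant replicate 2 fell between. The difference of tumour from wild type was -3.53 (SE 0.35, adjusted p 4.5e-06), 11.5-fold lower. With the spike-in covariate the call was lost and the sign turned, at 0.37 (adjusted p 0.97). Atp5g1 gave -2.39 (SE 0.18, adjusted p 7.7e-07) and Atp5g3 -0.30 (SE 0.088, adjusted p 0.013, and 0.051 without tumour replicate 1).

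The 3 Atp5g genes are known to encode the same mature protein behind different import sequences. The kept Atp5g1 probe set carries the suffix of sets that can match several transcripts, and its unsuffixed one, at a mean of 6.85, gave 0.43 (adjusted p 0.17 over all probe sets) in the same comparison. Atp5l, the g subunit that helps synthase dimers form, differed by -1.21 (SE 0.13, adjusted p 7.9e-06), and Atp5b by -0.55 (SE 0.089, adjusted p 0.00021).

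In complex III, Uqcr11 had 10.65, 10.45 and 10.82 in tumours, 11.06, 11.35 and 11.41 in adjacent tissue and 13.45, 13.49 and 13.14 in wild type. Tumours were lower than wild type by a difference of -2.72 (SE 0.26, adjusted p 3.6e-06). Uqcrq followed at -2.47 (SE 0.2, adjusted p 9.5e-07) and Uqcrc1, a core protein, at -1.89 (SE 0.18, adjusted p 3.1e-06). The other core protein, Uqcrc2, differed by 0.21 (adjusted p 0.075) and Uqcrb by -0.07 (adjusted p 0.655) on its brightest probe set and by -0.32 (adjusted p 0.015 over all probe sets) on another.

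In complex I, Ndufb10 lay at -1.61 (SE 0.13, adjusted p 1.1e-06), Ndufa8 at -1.27 (SE 0.16, adjusted p 3.8e-05) and Ndufs8, a core iron-sulfur subunit, at -1.21 (SE 0.16, adjusted p 4.7e-05). On their brightest probe sets Ndufs1 and Ndufv1, which hold the entry of electrons, differed by 0.11 (adjusted p 0.46) and 0.08 (adjusted p 0.68). The Ndufv1 probe set without a shared suffix gave -1.41 (adjusted p 4.8e-05), and the mean of its probe sets -0.44 (adjusted p 0.032). By brightest probe set 2 of 6 core subunits fell, and by any probe set 4 of 6. Of the assembly factors, Ndufaf3 had 9.35, 8.85 and 9.20 in tumours, against 11.39, 11.32 and 10.86 in wild type, a difference of -2.06 (SE 0.28, adjusted p 6.4e-05). Ndufaf8 followed at -1.62 (SE 0.22, adjusted p 5.7e-05) and Ndufaf2 at -1.03 (SE 0.18, adjusted p 0.00046). The covariate turned Ndufs8 to 0.26 (adjusted p 0.96), Ndufaf3 to 1.0 (adjusted p 0.82), Ndufaf8 to 0.05 and Ndufaf2 to 0.60.

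Sdhc fell by 1.14 in tumours relative to wild type (SE 0.13, adjusted p 1.1e-05) and Sdhb by 0.85 (SE 0.14, adjusted p 0.00028), while Sdha differed by -0.06 (SE 0.092, adjusted p 0.63). In complex IV, Cox7a1 differed by -2.56 (SE 0.13, adjusted p 4.2e-08), Cox8a by -1.35 (SE 0.14, adjusted p 6.6e-06), Cox6b1 by -0.92 (SE 0.094, adjusted p 6.4e-06) and Cox4i1 by -0.82 (SE 0.1, adjusted p 2.5e-05). Cox7a2 differed by -0.21 (SE 0.079, adjusted p 0.038), a call lost without any of the 3 tumour replicates or wild type replicate 2 or 3. Its second bright probe set gave -0.58 (adjusted p 0.00052 over all probe sets).

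The promoter motifs were set beside the same comparison. Of the 74 genes with a window 51 (68.9%) were lower in tumours than in wild type, with a median of -0.457. Of those with the NRF1 element 9 of 11 (81.8%) were lower, with a median of -0.854, and of those with the ETS core 15 of 19 (78.9%), with a median of -0.638. The YY1 core gave 6 of 10 (60%) and -0.642, and the muscle E-box 5 of 6 (83.3%) and -1.12. Some genes hold several motifs and the sets are small, so no motif is set apart by these counts.

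Tissue adjacent to the tumours differed from wild type in 35 genes that were lower and 5 that were higher, where 10.1% of all genes were lower and 17.7% higher. Calls among all genes were 63.6% higher as deposited and 45.1% higher after cyclic loess, which gave 38 lower and 3 higher members. Atp5g2 was lower in adjacent tissue by a difference of -2.78 (SE 0.35, adjusted p 0.00039), Uqcr11 by -2.09 (SE 0.26, adjusted p 0.00038) and Ndufaf3 by -1.86 (SE 0.28, adjusted p 0.00083). Cox7a1 fell by 0.56 (SE 0.13, adjusted p 0.009), and Cox8b differed by 0.44 (SE 0.26, adjusted p 0.229).

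The 5 increases were in Cox7c, Ndufa5, Uqcrc2, Ndufs1 and Ndufs7. Ndufa5, an accessory subunit of the matrix arm, had 13.61, 13.61 and 13.48 in adjacent tissue, against 13.23, 13.22 and 13.07 in wild type, a difference of 0.39 (SE 0.093, adjusted p 0.0081). A second Ndufa5 probe set gave -0.07 (adjusted p 0.61 over all probe sets). Uqcrc2 differed by 0.36 (SE 0.091, adjusted p 0.012). Cox7c rested on a dim probe set at 7.19, 7.72 and 7.92 in adjacent tissue, against 6.30, 6.39 and 6.07 in wild type (1.36, SE 0.43, adjusted p 0.033), and lost its call without adjacent replicate 2 or 3 or any wild type replicate.

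Adjacent tissue was also set against APC mutant colon, which shares the Apc change and retains Olfm4. Of the 90 genes 27 were lower and 1 higher, where 7.45% of all genes were lower and 9.88% higher. Without adjacent replicate 1 or 3 or APC mutant replicate 1 the count of lower genes was 16, without APC mutant replicate 2 it was 17, and a fit of these arrays alone gave 15. Calls among all genes were 57.0% higher as deposited and 38.5% after loess, which again gave 27 lower and 1 higher members. Atp5g2 differed by -2.79 (SE 0.35, adjusted p 0.0011), Uqcr11 by -1.80 (SE 0.26, adjusted p 0.0016) and Ndufaf3 by -1.58 (SE 0.28, adjusted p 0.004). Ndufa5 was higher by 0.38 (SE 0.093, adjusted p 0.016, and 0.051 without adjacent replicate 2). The spike-in difference was 4.12 in adjacent tissue and 2.23 in APC mutants, and with it as a covariate 0 of the 28 calls passed and 19 kept their direction.

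In Olfm4 mutants 4 of the 90 genes were lower than in wild type and 0 higher, where 2.5% of all genes were lower and 5.42% higher. The count of 4 is 4.44% of the members. It was 0 with the spike-in covariate, 0 with only these arrays fitted and 2 with double mutant arrays of 1 animal averaged. That averaging joined no Olfm4 mutant or wild type arrays and reached this comparison only through the shared estimate of spread. Calls among all genes were 68.5% higher as deposited and 40.2% after loess, which gave 5 lower members. Uqcrc1 had 11.57, 11.30 and 11.58 in Olfm4 mutants, against 12.62, 12.55 and 12.22 in wild type, without overlap, a difference of -0.98 (SE 0.18, adjusted p 0.01). Uqcr11 had 12.83, 11.63 and 12.69 in Olfm4 mutants, against 13.45, 13.49 and 13.14 in wild type, with replicate 2 far below the others.

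Uqcr11 differed by -0.98 (SE 0.26, adjusted p 0.04), and by -0.60 (adjusted p 0.11) without Olfm4 mutant replicate 2, the array with the high spike-in difference. It was called in 1 of the 6 fits that left out an array, without Olfm4 mutant replicate 1. Atp5g1 differed by -0.73 (SE 0.18, adjusted p 0.034) and by -0.51 (adjusted p 0.12) without replicate 2, and its call was also lost without Olfm4 mutant replicate 3 or wild type replicate 2 or 3. Its direction turned to 0.81 (adjusted p 0.056) on the probe set without a shared suffix and to 0.04 (adjusted p 0.93) on the mean of its probe sets. Atp5j, coupling factor 6 of the synthase stalk, differed by -0.37 (SE 0.085, adjusted p 0.026). Without Olfm4 mutant replicate 2 or 3, or wild type replicate 2, Uqcrc1 was the 1 gene called lower.

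The APC mutant colon differed from wild type in 0 of the 90 genes by limma, as in 0.0% of all genes in either direction. An unadjusted p below 0.05 was reached by 3 of 90, against 1324 of all 18193 genes. The median difference of the 90 genes was -0.066. The interaction asks whether loss of Olfm4 shifted a gene by another amount on the APC+/- background than on the intact one. It gave 0 calls in either direction (0.0% of all genes). An unadjusted p below 0.05 was reached by 12 of 90 members, against 1901 of all 18193 genes. Atp5g2 had -1.84 (SE 0.49, adjusted p 0.353), that is, -2.79 for adjacent tissue against APC mutants and -0.94 (adjusted p 0.114) for Olfm4 mutants against wild type. Leaving out Olfm4 mutant replicate 2 gave 1 call.

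The genes with the widest differences from wild type also lined up with the spike-in difference over the 15 arrays, as the plots of gene level against it show. Atp5g2 and Uqcr11 had 11.34 and 11.63 on Olfm4 mutant replicate 2, at a spike-in difference of 3.31. Both were lower than that on each tumour and adjacent array and higher on each remaining array. Cox7a1 instead was at or above 11.72 on the adjacent arrays and at or below 10.09 on the tumour arrays. With the covariate, 0 of the 58 calls of tumour against wild type passed, 48 kept their direction, and the median standard error was 0.417 in place of 0.110. For adjacent tissue against wild type 0 of 40 passed and 28 kept their direction, Ndufaf3 not among them (0.31). Between tumour and adjacent tissue, Cox7a1, Cox8b, Uqcrfs1 (-0.66, adjusted p 0.026) and Ndufa4 passed. The calls of all genes under the covariate are not given here. These losses therefore cannot be set against a share of all genes.

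**Figure D4:**
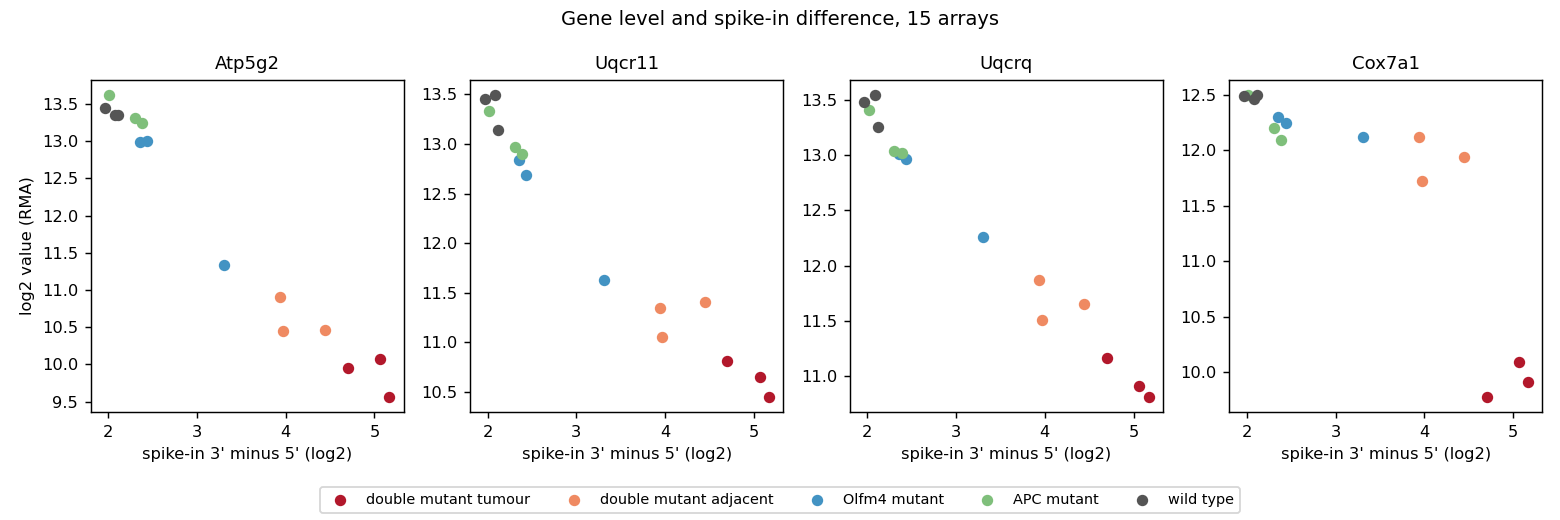
Log2 value of 4 genes (vertical axis) against the spike-in 3′ minus 5′ difference (log2, horizontal axis), 1 point for each of 15 arrays, coloured by group. Atp5g2, Uqcr11 and Uqcrq descend with the spike-in difference, while Cox7a1 is low on the 3 tumour arrays alone.

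Probe sets of the same gene did not agree in size. In 41 genes at least 2 probe sets had a mean above 10, and the dimmest was lower than the brightest in 33 of them for tumour minus wild type (medians -0.747 and -0.228). For tumour minus adjacent tissue the dimmest was lower in 28 (medians -0.377 and -0.195). It was lower in 34 for Olfm4 mutant minus wild type and in 30 for APC mutant minus wild type. For Sdhd the dimmest gave -2.14 and the brightest -0.13 in tumours against wild type. For Cox6a1 these were -1.52 and -0.10, and for Ndufv1 -1.41 and 0.08. The counts above, which rest on the brightest probe set, therefore depend on which probe set stands for a gene.

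**Figure D5:**
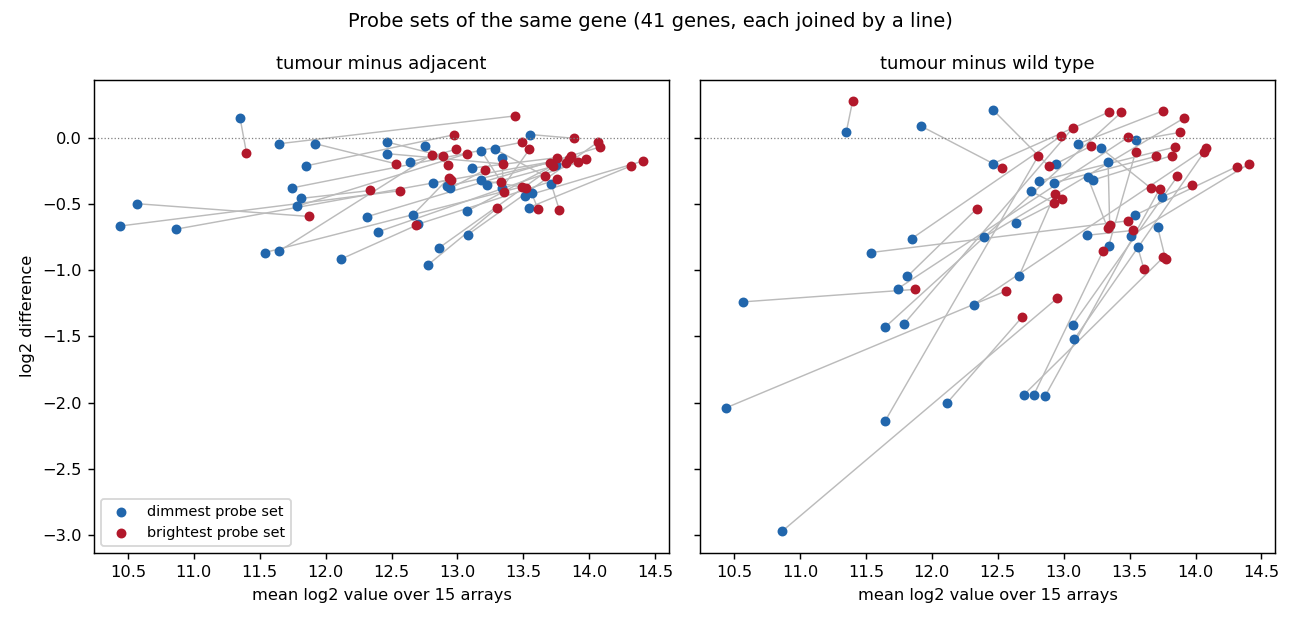
Log2 difference (vertical axis) against mean log2 value over 15 arrays (horizontal axis) for the brightest and dimmest probe set of 41 genes, joined by lines, for tumour minus adjacent tissue (left) and tumour minus wild type (right). Dimmest probe sets mostly lie lower than brightest ones, with medians of -0.747 and -0.228 at right.

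The array also holds ND5, a complex I subunit encoded by mitochondrial DNA and not among the 90 genes. It had 12.17, 12.48 and 11.96 in tumours, 13.09, 12.54 and 12.65 in adjacent tissue and 13.41, 13.24 and 13.30 in wild type. Tumours lay below adjacent tissue on every array, by -0.55 (SE 0.17, adjusted p 0.036 over all probe sets), and below wild type by -1.11 (adjusted p 0.00017).

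Genes that build, feed or control the chain were counted from listed sets. Of 32 assembly factors of complexes II to V, 4 (12.5%) fell and 1 rose between tumour and adjacent tissue, against 13.8% of all genes lower. Against wild type 9 (28.1%) fell and 8 (25%) rose, where 20.1% of all genes were lower and 29.3% higher, so these shares lie near those of all genes. Cox10, which makes heme O on the way to heme A, differed by -0.62 (adjusted p 0.027) between tumour and adjacent tissue, and Surf1, a complex IV assembly factor, by -0.48 (adjusted p 0.03). Uqcc3, a complex III factor, differed by -2.35 from wild type (adjusted p 1.1e-05). Of 14 cytochrome c and ubiquinone genes 5 (35.7%) fell relative to adjacent tissue, against 13.8% of all genes and 20.3% of bright genes. Among them were Coq9 (-1.0, SE 0.25, adjusted p 0.009) and Pdss2 (-0.77, SE 0.11, adjusted p 0.00016), both of ubiquinone synthesis.

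Of 16 citric acid cycle genes 6 (37.5%) fell and 0 rose relative to adjacent tissue, against 13.8% of all genes lower and 14.3% higher. Most such genes are bright, and of bright genes 20.3% were lower. Suclg2 and Suclg1, which form succinyl-CoA ligase, differed by -1.06 (SE 0.15, adjusted p 0.00023) and -0.91 (SE 0.15, adjusted p 0.00047). Beside 13.8% of all genes and 20.3% of bright genes lower, 4 (22.2%) of 18 regulators of mitochondrial biogenesis fell and 0 rose. They were Esrrg (-2.54, adjusted p 0.00039) and Ppargc1b (-1.47, adjusted p 0.015), a nuclear receptor and a coactivator of respiratory genes, Ppard, a fatty acid receptor (-1.36), and the mitochondrial deacetylase Sirt3 (-1.13).

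Not all regulators were low. Ppargc1a, the best known coactivator of mitochondrial genes, averaged 11.22 in adjacent tissue and 9.89 in wild type (1.33, adjusted p 0.015), and differed by 1.56 (adjusted p 0.025) in Olfm4 mutants from wild type. Tfam, which packs and transcribes mitochondrial DNA, was higher than wild type by 0.61 in tumours (adjusted p 0.0074) and by 0.70 in Olfm4 mutants (adjusted p 0.027). Of 16 import and chaperone genes 2 (12.5%) rose relative to adjacent tissue, below the 14.3% of all genes. They were Hspd1, the mitochondrial chaperonin (0.67, adjusted p 0.015), and Tomm70a, an import receptor (0.46, adjusted p 0.025). Of 10 carrier and uncoupler genes 1 (10%) fell, against 13.8% of all genes. It was Slc25a5, an ADP and ATP carrier (-0.40, SE 0.082, adjusted p 0.0023).

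Of 10 hypoxia response genes 1 (10%) fell relative to adjacent tissue, against 13.8% of all genes. Against wild type 6 (60%) rose and 1 (10%) fell in tumours, where 29.3% of all genes were higher and 20.1% lower. Among bright genes 35.4% were higher and 29.4% lower. In adjacent tissue 6 (60%) rose against wild type, beside 17.7% of all genes and 26.9% of bright genes. There Vegfa, an angiogenic factor, was higher by 1.23 (adjusted p 0.0045), and Pdk1, which restrains pyruvate entry, by 1.09 (adjusted p 0.0027). The genes whose 5 group means were most like the mean of the 78 members of complexes I, III, IV and V were Trappc6a, Rab3b, Cfap52, Ifi27l2b and Arpin. Pearson's r lay between 0.99875 and 0.99926 over 5 group means, and 167 genes exceeded 0.99, so such likeness is common here.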

How the data were processed

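Trizol was used to take total RNA from mouse colon, and its biotinylated cRNA went onto Affymetrix Mouse430_2 arrays, according to the labels' protocols. The authors deposited log2 values. RMA and Partek 6.5 are named in the submitters' processing notes. RMA summarises the probes of a set and gives all arrays 1 common distribution, so a shift of most genes in 1 direction mostly disappears. Neither detection calls nor a genome build is given in the sources used here, and the number of arrays limits the precision.

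Of 45101 probe sets 64 are controls, 34945 have 1 gene symbol in the platform annotation, 932 have several and 9160 have none. Only those with 1 symbol were used, so 8 symbols that fit the naming rule have no value here. Entrez identifiers changed 0 symbols. The 90 genes have 179 probe sets, and 49 of the kept ones carry a suffix of sets that can match several transcripts.

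A model of 5 group means was fitted to 15 arrays with limma 3.58.1 (lmFit, eBayes) in R 4.3.3, tested on simulated data first. In each of 7 contrasts p-values were adjusted by Benjamini-Hochberg over 18193 genes, with calls below 0.05. Adjusted p-values are from limma, and SE is that of the fitted log2 difference. Single probe sets were tested and adjusted over all probe sets. Promoter windows are RefSeq's for GRCm38.p6.

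The genes and lists were chosen with earlier results of these data known. Named were, in both tumour comparisons, up to 3 called genes per complex and direction whose arrays do not overlap and all Sdh genes, in other comparisons the 3 widest called per direction, and the tissue isoforms and catalytic subunits whatever their values. Up to 4 genes were named per list. Others were named after their values were seen.

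Tumour and adjacent arrays share animals. Deviations from group means correlated at 0.281, -0.0155, 0.124, 0.126 and 0.182 within animals and between -0.259 and -0.0881 across them. Alternatives were the probe set rule, cyclic loess, a level filter, the variance prior, the spike-in covariate, animals as blocks or averaged, the arrays fitted, a fold minimum and leaving out each array. The probe set fits and the background of bright genes were added after the data were seen.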

Additional observations from a re-analysis of the deposited data

How the results depend on the processing

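With the animal as a replicate block, 1 oxidative phosphorylation gene was higher and 30 were lower between tumour and adjacent tissue, against 1 and 31 without it, and a random animal block gave 1 and 40. Averaging arrays of 1 animal gave 0 higher and 13 lower there, 2 higher for adjacent tissue against wild type, 17 lower against APC mutants and 2 lower for Olfm4 mutants against wild type. No Olfm4 mutant or wild type arrays were averaged. The random block gave 3 higher for adjacent tissue against wild type. Cyclic loess gave 2 higher and 16 lower between tumour and adjacent tissue, 5 higher between tumour and wild type and 3 higher between adjacent tissue and wild type. The spike-in covariate gave 3 lower between tumour and adjacent tissue, and 0 higher and 0 lower for tumour or adjacent tissue against wild type, adjacent tissue against APC mutants and Olfm4 mutants against wild type. The covariate changes together with the groups, and the cause of these losses was not tested. No share of all genes under the covariate is given beside these counts.

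A fold of at least 1.5 besides the adjusted p left 0 higher and 9 lower between tumour and adjacent tissue, 34 lower between tumour and wild type, 1 higher and 17 lower between adjacent tissue and wild type, and 0 higher and 14 lower between adjacent tissue and APC mutants. This setting calls fewer genes by construction. Fitting only the arrays compared gave 1 higher and 23 lower for adjacent tissue against wild type, 15 lower against APC mutants and 0 lower for Olfm4 mutants against wild type. Probe sets without a shared suffix gave 0 higher between tumour and adjacent tissue, and 1 higher and 8 lower for Olfm4 mutants against wild type. The mean of all probe sets gave 2 higher for tumour against wild type and 2 higher for adjacent tissue against APC mutants. The filter to bright genes gave the same 2 counts and 7 lower for Olfm4 mutants against wild type. A trended robust prior gave 2 higher between tumour and adjacent tissue, 4 between tumour and wild type, 3 between adjacent tissue and APC mutants, and 3 higher and 7 lower for Olfm4 mutants against wild type.

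Leaving out each array in turn gave 0 to 1 higher and 17 to 30 lower between tumour and adjacent tissue, where 17 was without adjacent replicate 2. It gave 51 to 54 lower between tumour and wild type, 2 to 5 higher for adjacent tissue against wild type, and 0 to 2 higher and 16 to 26 lower against APC mutants, where leaving out any of these arrays but adjacent replicate 2 and APC mutant replicate 3 gave 16 or 17. Olfm4 mutants against wild type had 1 to 5 lower, and the interaction 0 to 1 lower.

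Called genes reversed too. The covariate turned 10 of the 58 called genes for tumour against wild type, 12 of 40 for adjacent tissue against wild type and 9 of 28 against APC mutants, and 0 of 32 between tumour and adjacent tissue. The named genes that reversed are given next, called or not. Cyclic loess turned Cox6a1 to 0.122 between tumour and adjacent tissue, and, between tumour and wild type, Sdha to 0.0264, Cox6a1 to 0.0519, Cox6a2 to -0.178 and Cox8c to -0.114. The covariate turned, between tumour and adjacent tissue, Cox6a2 to -0.0191, Cox7b2 to 0.0701, Cox8c to -0.318, Ndufa4l2 to 0.337 and Atp5g2 to 0.398. Between tumour and wild type it turned Ndufs8 to 0.262, Ndufaf3 to 1.0, Ndufaf8 to 0.0523, Ndufaf2 to 0.602, Atp5g2 to 0.369, Ndufa4 to 0.689, Cox6a2 to -0.407, Cox7b2 to 0.78, Cox8c to -1.25, Ndufa4l2 to 1.03, Ndufs1 to -0.261 and Ndufv1 to -0.0796. It turned Cox7c to -0.0891 and Ndufaf3 to 0.305 for adjacent tissue against wild type, and Ndufaf3 to 0.392 against APC mutants.

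Averaged animals turned Cox6a2 to -0.0275 and Cox8c to -0.16 against adjacent tissue, and to -0.059 and -0.0493 against wild type. Probe sets without a shared suffix turned Atp5g1 to 0.432 and Ndufv1 to -1.41 between tumour and wild type, Ndufa5 to -0.0748 between adjacent tissue and wild type, and Atp5g1 to 0.812 between Olfm4 mutants and wild type. The mean of all probe sets turned Ndufv1 to -0.437 and, in Olfm4 mutants, Atp5g1 to 0.0398. Leaving out arrays gave ranges across 0 between tumour and adjacent tissue for Cox6a1 (-0.0781 to 0.00198), Cox8c (-0.216 to 0.344) and Cox6a2 (-0.0462 to 0.253). Between tumour and wild type they were -0.136 to 0.163 for Cox6a2, -0.251 to 0.160 for Cox8c and -0.0225 to 0.138 for Ndufv1. Dim probe sets such as those of Cox8c, Cox7b2 and Cox6a2 limit what these arrays can show.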
